A study of Caenorhabditis elegans with 15 samples.

Results

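Anti-FLAG immunoprecipitations (IPs) of the RNA-binding protein GLD-1 had been made from the same worm strain in a pair of experiment sets, and the transcripts they recovered were compared between the sets. GLD-1 is a STAR-family protein of the Caenorhabditis elegans germline. It binds messenger RNAs, mostly in the 3′ untranslated region, and holds back their translation, and many of these messages encode proteins that are used later, in oocytes and early embryos. An IP with a tag on GLD-1 pulls such messages down with the protein, together with some RNA that sticks to the beads or the antibody without it.

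Set 1 held 3 anti-FLAG IPs of the tagged strain, titled aFLAG_1 to aFLAG_3 and called FLAG 1 to 3 here, and set 2 held 3 further anti-FLAG IPs of that strain, titled GGF_aFLAG_1 to GGF_aFLAG_3 and called tagged FLAG 1 to 3. All 6 came from whole young adults in which the gene's own copy carries the mutant allele gld-1(q485). The integrated transgene ozIs2 [gld-1::gfp::flag], whose promoter the labels do not give, makes GLD-1 with GFP and a FLAG tag in these worms. Each set had its own control on 3 arrays: in set 1 an anti-MYC IP of the tagged strain, which has no MYC tag, and in set 2 an anti-FLAG IP of wild type N2 worms, where the tag is missing. Of the 15 Affymetrix C. elegans arrays, the other 3 held input, the worm RNA from before the IP, also of the tagged strain. Mouse brain RNA had been added to each IP as a carrier, per the labels. Whether arrays of 1 group came from separate worm cultures is not stated, so p-values measure the spread between these arrays only.

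Members were probe sets with a deposited log2 signal of 5 or more on at least 3 of the 6 tagged IP arrays, with array controls left out. They numbered 1553 of 22548 probe sets (6.89%) and represented 1195 of 17118 genes. Of these probe sets, 1552 also averaged 5 or more in input, and 792 (51%, against 29.8% of all probe sets) have a suffix by which the array maker marks sequence shared between transcripts. Whole worms hold all tissues, and in input the members among sperm, muscle, intestine and collagen genes had medians of 11.79 to 13.05 and the earlier known GLD-1 targets of the germline had medians of 9.05 to 10.02. On the X chromosome lay 59 members, 4.01% of those with a known chromosome, against 14.7% of all placed probe sets. The last members past the threshold were F41F3.3 and vha-15, whose third-highest tagged array read 5.004 and 5.011, and the first ones short of it were K05C4.2 and mtm-3 at 4.998 and 4.995.

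The arrays of set 1 differed from each other far more than those of set 2. Of the members, 550 on FLAG 1, 1461 on FLAG 2 and 1537 on FLAG 3 of set 1 reached log2 5, against 1549, 1421 and 1261 on the 3 tagged arrays of set 2. The median member signal was 4.49, 6.31 and 6.87 on the set 1 arrays, against 6.73, 6.22 and 5.90 on the set 2 arrays. FLAG 1 was the dimmest array, and 1003 members missed the threshold on it; 658 of them missed it nowhere else. All 6 arrays passed for 543 members, 15 members reached 5 on no set 1 array, and 1 member, F41F3.3, reached it on no set 2 array. The median within-set SD of a member was 1.22 in set 1, or 0.264 without FLAG 1, against 0.458 in set 2. With 3 arrays a group, precision is limited throughout.

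Of the 20 genes that ranked highest in both sets, 5 were on the list of eggshell and yolk uptake genes and 3 on that of RNA regulators of oocytes and early embryos. A rank here is the place of a probe set's set mean among the 1553 members; since the signal depends on each probe set's own probes, ranks order signals and not amounts of RNA. cpg-2, which encodes a chondroitin proteoglycan of the eggshell, was first in both sets. It read 11.58, 12.18 and 12.25 in set 1, against 13.47, 13.02 and 12.88 in set 2. Its set 1 arrays all lay below its set 2 arrays, by a mean of 1.12 on the log2 scale (SE 0.699), and limma made no call (adjusted p = 0.986).

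Other eggshell, fertilization and yolk genes, and a lectin gene, stood next to it. cpg-1, a further eggshell proteoglycan, ranked 4 in set 1 and 3 in set 2. cbd-1, which encodes a chitin-binding protein of the egg's outer layer, ranked 3 in set 1 and 7 in set 2, with overlapping arrays (10.34, 11.75 and 11.84 in set 1, against 12.34, 12.14 and 11.77 in set 2). egg-1, an oocyte surface protein needed for fertilization, ranked 22 and 16, and rme-2, the oocyte's yolk receptor, ranked 21 and 20 in set 1 and set 2. clec-87, of the C-type lectin family, ranked 5 and 4. These 6 genes, cpg-2 included, are thus within the first 22 places of both sets.

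RNA-binding regulators of the oocyte and early embryo also stood near the top. oma-2, whose zinc finger protein is required for oocytes to mature, ranked 6 in both sets. It read 9.97, 11.59 and 11.73 in set 1, against 12.81, 12.41 and 12.11 in set 2, a mean difference of -1.35 ± 0.592 (SE; adjusted p = 0.986). pos-1, a zinc finger regulator of embryonic cell fate, ranked 15 in set 1 and 13 in set 2, and puf-7, of the PUF family, ranked 23 and 19. Both oma-2 and puf-7 were lower on every set 1 array than on any set 2 array, as was pos-1.

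The rest of the 20 highest genes were more mixed. sip-1, a small heat shock protein of oocytes and embryos, ranked 10 in set 1 and 5 in set 2. Also among them were rmd-1 (a regulator of microtubule dynamics; rank 11 in both sets), the glutamine synthetase genes gln-6 and gln-5, the meiotic spindle gene mesp-1, the GTPase gene ran-1, the B-type cyclins cyb-2.1 and cyb-2.2, F18A1.7, and the mitochondrial genome transcripts COX3 and ND4. By their suffix, 11 of the 20 probe sets share sequence with other transcripts and may hold signal from them. These include cpg-2, oma-2 and the cyclin pair. The whole 20 had input means of 10.72 to 12.81 and far lower control IP means, 3.95 to 8.35 in MYC and 4.15 to 7.76 in N2. The highest of both control ranges was COX3.

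**Figure D1:**
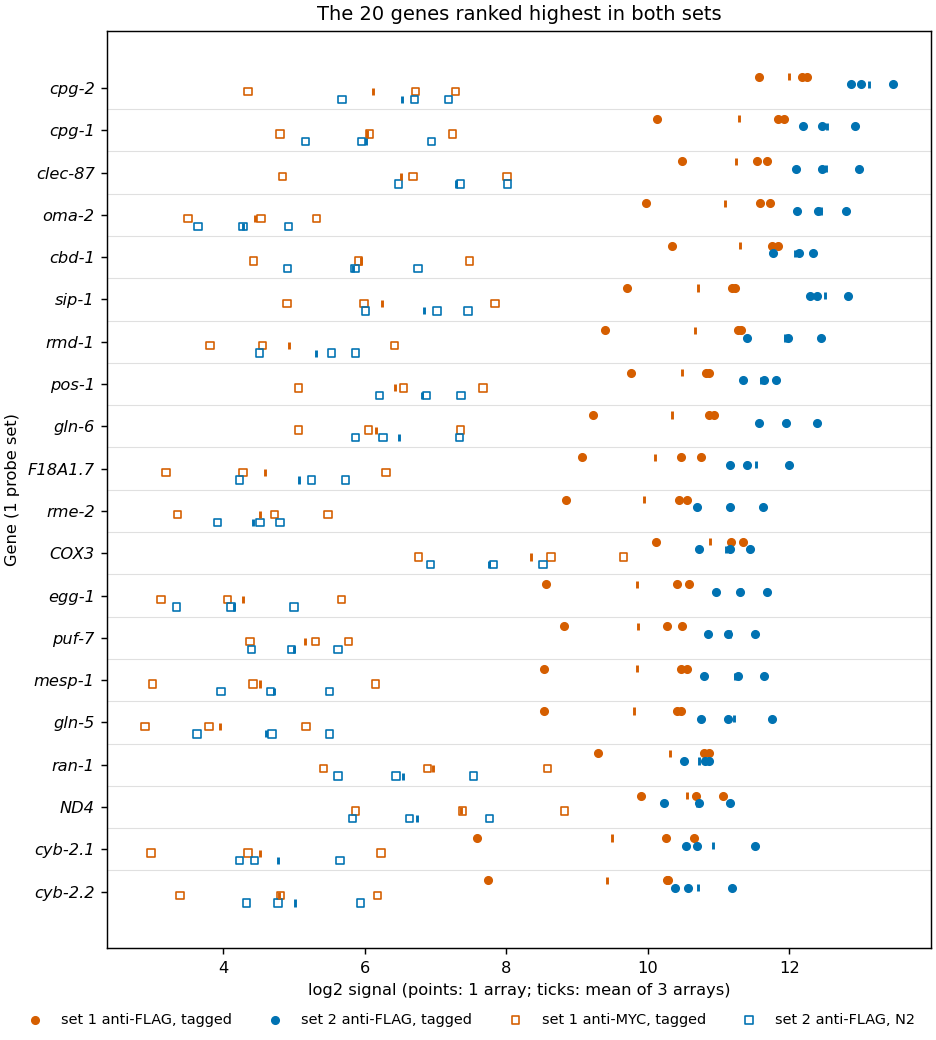
Log2 signal (x axis) of the 20 genes that ranked highest in both sets, listed by the worse of their ranks, on each set 1 anti-FLAG array (filled orange), set 2 tagged anti-FLAG array (filled blue), set 1 anti-MYC array (open orange) and set 2 N2 array (open blue); ticks are means of 3 arrays. The lowest filled orange point of each gene is FLAG 1, and for 15 of the 20 genes all orange filled points lie below all blue filled points.

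For all 20 genes the set 1 mean was below the set 2 mean, by 0.15 (ND4) to 1.80 (sip-1) on the log2 scale, with SEs of 0.524 to 0.976. The difference was 2-fold or more for 16 of them, and for 15 the arrays of the sets did not overlap; over all probe sets 2.55% were lower in set 1 with no overlap. None of the 20 was called (limma, adjusted p of 0.986 to 0.987; unadjusted p of 0.0340 to 0.843). Without FLAG 1 the differences ran from -1.3 to 0.17 and 17 remained below 0, and after quantile normalization or cyclic loess 15 did. Quantile normalization, which gives all arrays 1 distribution, left differences of -0.49 to 0.55.

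The gld-1 message itself ranked 45 in set 1 and 40 in set 2. It read 8.29, 9.63 and 9.46 in set 1, against 10.49, 10.13 and 9.90 in set 2, a difference of -1.04 ± 0.575 (adjusted p = 0.986; -0.62 without FLAG 1). In the control IPs it averaged 3.65 (MYC) and 4.62 (N2), and in input 9.82. Where this probe set lies against the q485 lesion or the transgene was not analysed here. A second gld-1 probe set was no member and had means near the array floor.

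The order of the members was alike in the 2 sets but not as alike as among set 2 replicates. Across the 1553 members, set 1 and set 2 means had a Spearman rho of 0.835 and a Pearson r of 0.883; members share arrays and, in part, probe sequence, so these describe the arrays and carry no test. Between single arrays rho was 0.79 to 0.888 within set 1, 0.955 to 0.962 within set 2, and 0.68 to 0.887 across the sets. FLAG 2 of set 1 was nearest to set 2 (0.854 to 0.887) and FLAG 3 farthest (0.68 to 0.745). FLAG 2 matched each set 2 array about as well as it matched the other set 1 arrays (0.868 and 0.888).

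**Figure D2:**
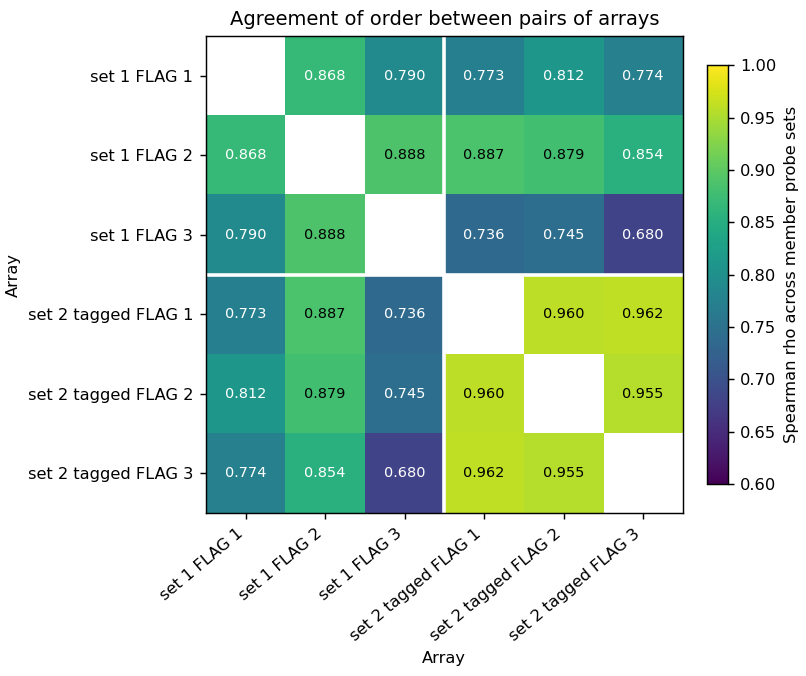
Spearman rho across the 1553 members for each pair of the 6 tagged anti-FLAG arrays; both axes list set 1 FLAG 1 to 3 and then set 2 tagged FLAG 1 to 3, and white lines part the sets. Set 2 arrays agree at 0.955 to 0.962 among themselves, and the lowest value, 0.68, is between set 1 FLAG 3 and set 2 tagged FLAG 3.

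The top of the order was shared to a similar degree. Of the 20 highest probe sets of each set, 15 were shared, as were 41 of the highest 50, 72 of the highest 100 and 136 of the highest 200. Single set 2 arrays shared 94 or 95 of their highest 100 with each other. FLAG 1, 2 and 3 of set 1 shared 71 to 74, 81 to 82 and 37 to 38 with them. When each set's own control was subtracted first (FLAG minus MYC in set 1, tagged minus N2 in set 2, which share no array), rho across the members was 0.954 and 80 of the highest 100 were shared.

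The probe sets that were among the highest 100 in 1 set alone were of different kinds. Of the 28 in set 1 alone, 26 had a mean control IP signal of 5 or more, and 11 were ribosomal protein probe sets; the rest included eef-1A.1 (the translation elongation factor), the actin genes act-3 and act-4, unc-15 (paramyosin of muscle), COX1, COX2 and msp-78 (a major sperm protein). Of the 28 in set 2 alone, 4 had such a control signal, and none was a ribosomal protein gene; among them were puf-3, mei-2 (a katanin subunit of the meiotic spindle), air-1 (Aurora A kinase) and neg-1. Over all members 22.1% had that control signal, and over the 72 shared probe sets 37.5%. Without FLAG 3 of set 1, 21 probe sets were in set 1 alone, of which 12 had a control signal of 5 or more and 4 were ribosomal protein probe sets, and without FLAG 1 these counts were 39, 38 and 20. The ribosomal protein gene rps-25 ranked 37 in set 1 and 150 in set 2, and read 7.50, 9.37 and 11.04 in set 1, against 9.15, 8.94 and 8.12 in set 2. Its difference of 0.57 was -0.30 without FLAG 3 and 1.47 without FLAG 1.

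**Figure D3:**
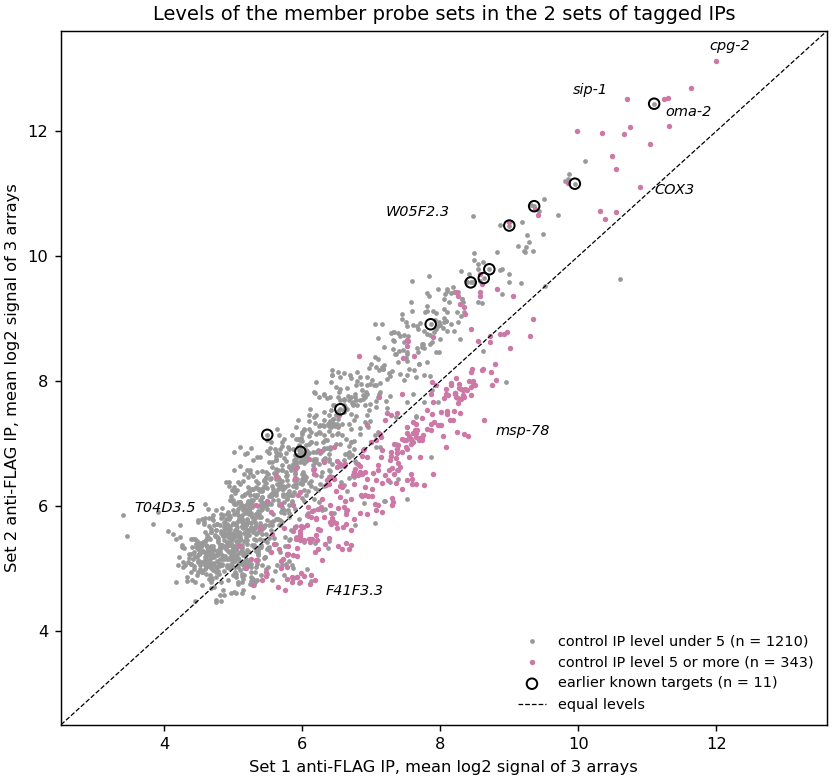
Mean log2 signal of the 1553 members over 3 set 1 anti-FLAG arrays (x axis) and over 3 set 2 tagged anti-FLAG arrays (y axis); pink points are the 343 members with a mean control IP signal of 5 or more, black rings are 11 earlier known targets, and the dashed line marks equal signal. Most grey points lie above the line (lower in set 1) and most pink points below it, with cpg-2 and sip-1 at the upper right among the pink exceptions.

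No member was called different between the sets. The fit over all probe sets called 0 higher and 6 lower in set 1 (0.0266%), at an unadjusted p under 0.05 it had 265 higher and 493 lower (1.18% and 2.19%), and of the members 4 higher and 124 lower had such a p. The smallest adjusted p of a member was 0.263. With 3 arrays against 3, an exact two-sided permutation test of 1 value cannot go below p = 0.1. The 6 called probe sets, of C30G12.1, T05A12.4, bath-12, F36H5.10, nprt-1 and npp-20, were no members. C30G12.1 read 2.52, 2.51 and 2.46 in set 1, against 4.49, 4.35 and 3.76 in set 2 (limma, adjusted p = 0.0161). T05A12.4 read 2.79, 3.25 and 3.49 in set 1, low but above the floor of the arrays. The others all had set 1 levels at or close to that floor. Other settings did call members. After quantile normalization 7 members were called higher and 8 lower, where the calls over all probe sets numbered 7 and 15 (0.031% and 0.0665%). After cyclic loess 21 and 22 members were called, among 30 and 43 probe sets (0.133% and 0.191%). With array weights, which count replicates that stand apart for less, 92 and 138 members were called, among 1576 and 1476 probe sets (6.99% and 6.55%).

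Signals of the members were lower in set 1 more often than higher. The set 1 mean was below the set 2 mean for 1144 members and above it for 409, with a median difference of -0.53 (quartiles -0.90 and 0.05), and 296 members were at least 2-fold lower and 49 at least 2-fold higher. The median over all probe sets was 0.007. Groups did not overlap for 196 members lower in set 1 and for 1 higher; over all probe sets these shares were 2.55% and 2.12%. Since a probe set could pass the threshold through 1 set alone, these counts describe the members and test nothing. The common shift rested on FLAG 1: without it the median difference was 0.09, and 196 members were lower and 282 higher with no overlap (6.4% and 9.02% of all probe sets). Without FLAG 3 the median was -0.94, with 438 lower and 1 higher (8.16% and 8.65%), and without tagged FLAG 3 of set 2 the counts were 418 and 2 (5.52% and 5.39%). The counts also moved with the scaling, to 428 lower and 254 higher after quantile normalization (5.55% and 5.86% of all probe sets), to 447 and 338 after cyclic loess (5.7% and 11.7%), 422 and 287 with arrays centred on the member median (2.01% and 3.61%) and 696 and 42 with the ribosomal protein genes as the centre of each array (3.34% and 0.257%).

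T04D3.5 had the lowest difference of any member. It read 2.79, 3.24 and 4.18 in set 1, against 6.59, 5.62 and 5.34 in set 2, a difference of -2.45. It reached log2 5 on all 3 set 2 arrays and on no set 1 array, so it is a member through set 2 alone, and its difference describes it with no test. It was the last of the 1553 members in set 1 and ranked 970 in set 2, and its control IP means were 2.78 in MYC and 2.72 in N2. FLAG 1 of set 1 thus read as little as the controls and FLAG 3 somewhat more, while all set 2 tagged arrays stood clear of them. The difference was -2.14 without FLAG 1 and -1.67 after quantile normalization.

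Other genes that were lower in set 1 had strong signals in both sets. W05F2.3 read 7.01, 9.07 and 9.32 in set 1, against 11.08, 10.50 and 10.37 in set 2 (-2.18 ± 0.785, adjusted p = 0.986; ranks 91 and 31). T01C3.3 differed by -2.02 (ranks 254 and 61), Y51H7C.3 by -1.85 (ranks 203 and 58) and Y110A2AR.1 by -1.86 (ranks 380 and 125). sip-1 read 9.70, 11.23 and 11.19 in set 1, against 12.83, 12.39 and 12.30 in set 2 (-1.80 ± 0.735), and had a difference of -1.3 without FLAG 1. Without that array the others differed by -1.45 (W05F2.3), -1.29 (T01C3.3), -1.25 (Y51H7C.3) and -1.13 (Y110A2AR.1). None of these was called on the values as deposited.

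Further members lost many places in set 1. The mean within-array rank of ZK829.9 was 679.7 places lower in set 1, that of ctg-1 593, of ari-1.4 (of the Ariadne ubiquitin ligase family) 587.3, of F14D7.2 577 and of T04D3.5 567.3. ctg-1 and T04D3.5 reached log2 5 on no set 1 array and are members through set 2 alone, so a low place among the members in set 1 came with the way they were chosen. ctg-1 read 2.52, 4.25 and 4.96 in set 1, against 6.31, 5.75 and 5.64 in set 2. Over all members, ranks did not overlap between the sets for 378 that stood worse in set 1 (24.3% of the 1553) and for 300 that stood better (19.3%). Without FLAG 1 these counts were 533 and 395, and without FLAG 3 they were 416 and 379.

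Of the 5 genes that gained most places in set 1 with no overlap of ranks, 3 encode major sperm proteins, which drive sperm movement and signal to oocytes. F41F3.3 was the 1 member whose arrays were all higher in set 1: 5.00, 5.90 and 7.64, against 4.60, 4.91 and 4.92 in set 2. It reached log2 5 on no set 2 array, so it is a member through set 1 alone. Its difference of 1.37 and its lack of overlap thus came with the way it was chosen and carry no test. Its control IP means were 6.06 in MYC and 4.57 in N2, close to its tagged means of 6.18 and 4.81. The other genes of the 5 were F58A6.9, msp-65, msp-152 and msp-33. msp-65 read 4.96, 6.81 and 8.26 in set 1, against 5.81, 5.34 and 4.78 in set 2, so that FLAG 1 lay within the set 2 range and the other set 1 arrays above it. Much of these differences came with FLAG 3: without it they were 0.64 for F41F3.3, 0.59 for F58A6.9, 0.58 for msp-65, 0.42 for msp-152 and 0.37 for msp-33, against 1.37, 1.36, 1.37, 1.26 and 1.18 with all arrays. These probe sets share sequence with other family members and cannot be told apart from them.

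The difference between the sets followed the signal in the control IPs. The 343 members whose mean over the 6 control arrays was 5 or more had a median difference of 0.43, and 23.9% of them were lower in set 1. The 231 members with a control mean of 4 to 5 had -0.43, the 694 with 3 to 4 had -0.68, and the 285 under 3 had -0.77. MYC minus N2 also had its highest median in the first class, with 0.56, 0.23, 0.08 and 0.06 in these 4 classes. All of these were above 0, while the tagged medians of the last 3 classes were below it. The classes were cut on the same control arrays, and near the floor little difference between controls can show, so this order is partly built in. For MYC minus N2 no probe set was called (limma, with 138 higher and 236 lower at an unadjusted p under 0.05). No array was left out of these medians. Ribosomal protein medians read 6.51, 7.71 and 9.40 in MYC, against 7.98, 7.11 and 6.45 in N2, so only MYC 3 stood above all N2 arrays. Across the members the difference between tagged IPs and that between control IPs had a Pearson r of 0.63 and a Spearman rho of 0.597 (0.492 and 0.504 without FLAG 3). The controls of the sets also differ in antibody and in strain, so MYC minus N2 cannot tell these apart from the set. What part the difference in control IPs had in that of the tagged IPs was not tested.

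**Figure D4:**
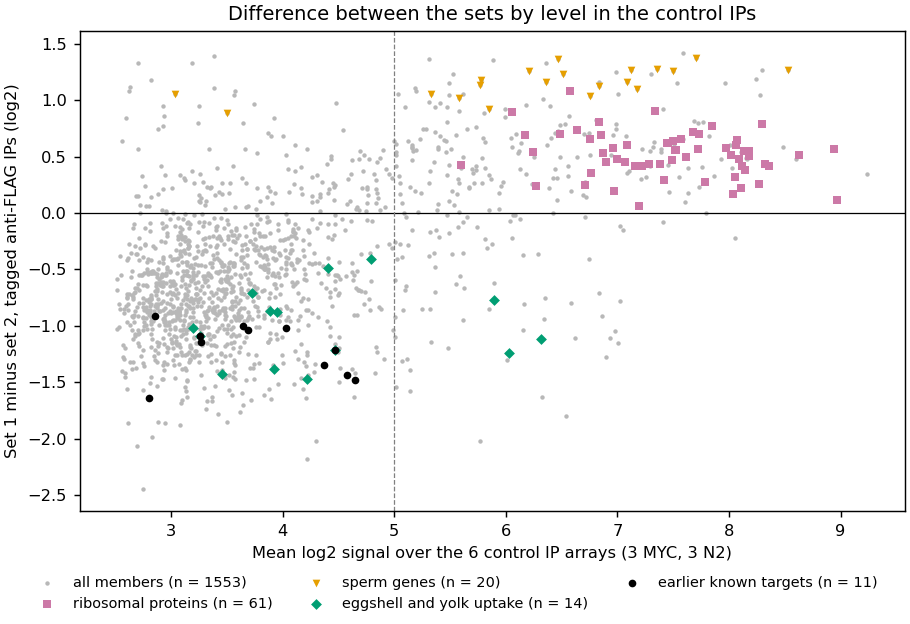
Difference in mean log2 signal, set 1 minus set 2 tagged anti-FLAG IPs (y axis), against the mean log2 signal on the 6 control IP arrays (x axis), for all 1553 members (grey) and for 4 gene lists; the dashed line marks a control signal of 5. Ribosomal protein and sperm genes lie above 0 (the ribosomal protein genes not so without set 1 FLAG 3), and earlier known targets and eggshell genes lie below it.

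The sign in the class with high control signal rested on 1 array. Without FLAG 3 of set 1 its median was -0.50, and without FLAG 1 it was 1.39. The spacing between the classes was less dependent on single arrays. The class of 5 or more minus that under 3 came to 0.43 against -0.77 with all arrays, to 1.39 against -0.13 without FLAG 1 and to -0.50 against -1.14 without FLAG 3, so the class with high control signal stood higher each time.

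Gene lists showed the same spacing. The earlier known GLD-1 targets numbered 13 measured genes, of which 11 were members, and their median difference was -1.14, against -0.54 over all 1195 member genes; all 11 were lower in set 1, 7 with no overlap of arrays, against 156 of the 1195 (13.1%). Each was lower in set 1 also without FLAG 1 (median -0.58) and after quantile normalization (-0.54). tra-2, a sex determination gene, read 3.76, 6.35 and 6.36 in set 1, against 7.55, 7.11 and 6.75 in set 2 (-1.64 ± 0.614), the widest gap of the 11. cep-1, the worm p53 gene, had the narrowest, 4.39, 6.57 and 6.94 in set 1, against 7.41, 6.95 and 6.26 in set 2 (-0.91 ± 0.591). Without FLAG 1 the difference was -0.78 for tra-2 and -0.12 for cep-1. None was called, with adjusted p of 0.986 for all 11.

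Between those ends lay the other known targets. spn-4, an embryonic RNA-binding regulator (ranks 48 and 36), differed by -1.48, and puf-5, a PUF family regulator of oogenesis (33 and 24), by -1.44. oma-1, the partner of oma-2 (96 and 66), differed by -1.14, and gna-2, an enzyme that makes a precursor of eggshell chitin (68 and 50), by -1.09. pal-1, a caudal-type homeodomain gene (199 and 126), mex-3, an RNA-binding regulator of embryonic fate (70 and 59), and glp-1, the Notch receptor of the germline (513 and 336), differed by -1.04, -1.02 and -1.0. Without FLAG 1 the differences were smaller: -0.58 for spn-4, -0.57 for puf-5, -0.20 for oma-1, -0.49 for gna-2, -0.58 for pal-1, -0.62 for mex-3 and -0.22 for glp-1. The 2 known targets that were no members, mes-3 and cye-1 (cyclin E), had differences of -0.16 and -0.33. Ranks are given for set 1 and then set 2.

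Lists of oocyte and embryo genes were likewise lower in set 1 by their medians. All 22 members of 26 RNA regulators were lower (median -1.05, 14 with no overlap), as were all 14 members of 15 eggshell and yolk uptake genes (-1.06, 9), all 18 members of 40 cell cycle genes (-0.87, 3) and all 8 members of 20 polarity and patterning genes (-1.02, 3). The counts with no overlap stand beside the 13.1% of all member genes, and that of the cell cycle genes, 3 of 18, lies near it. Without FLAG 1 these medians were -0.51, -0.48, -0.11 and -0.49, and 20, 12, 11 and 7 members were lower. Among 19 P granule and small RNA genes 6 were members (median -0.55), and among 23 meiosis genes 4 were (-0.32). Without FLAG 1 the medians of the last pair of lists were 0.15 and 0.10, on the other side of 0, and the meiosis median was also above 0 after quantile normalization (0.06) and after centring on the member median (0.07). lab-1, a meiotic chromosome protein, had the lowest difference of them, reading 3.80, 5.38 and 5.85 in set 1, against 7.09, 6.63 and 6.02 in set 2. The difference was -1.57 ± 0.475 (limma, unadjusted p = 0.00937, not called), or -0.96 without FLAG 1. That SE pools all 12 IP arrays. The SDs of lab-1 were 1.08 and 0.537 in the tagged groups of set 1 and set 2, against 0.173 in MYC and 0.124 in N2. The SE and p thus understate the spread of its tagged arrays.

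Lists of abundant housekeeping and somatic genes were higher in set 1 by their medians on the values as deposited, after quantile normalization, after loess and after centring on the member median, but not in every setting. Of 62 ribosomal protein genes 61 were members, all with a higher set 1 mean (median 0.53), none without overlap. Medians were 0.33 for 7 of 9 translation factors, 0.18 for 7 of 8 mitochondrial genome transcripts, 0.39 for 11 of 30 respiratory chain genes, 0.59 for 8 of 21 muscle genes and 0.51 for 14 of 146 collagens. Without FLAG 3 each of these 6 medians was below 0 (-0.50 for the ribosomal protein genes), and without FLAG 1 the ribosomal protein median was 1.55. With arrays centred on the ribosomal protein genes, the medians were -0.22 for translation factors, -0.37 for mitochondrial genome transcripts, -0.15 for respiratory chain genes, -0.03 for collagens and 0.05 for muscle genes, and the median of all members was -1.07. Their MYC minus N2 medians were 0.43 to 0.91, on the same side as the differences of the tagged IPs. These took in MYC 3, where the ribosomal protein median was 9.40, against 6.51 and 7.71 on the other MYC arrays.

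Sperm genes stood highest of the lists in this comparison. Of 76 sperm genes 20 were members, all with a higher set 1 mean, at a median of 1.16 (0.32 without FLAG 3, 2.06 without FLAG 1 and 0.62 with arrays centred on the ribosomal protein genes). Their median signal was 5.08, 7.02 and 8.38 on the set 1 FLAG arrays, against 6.32, 5.59 and 5.28 on the set 2 tagged arrays, and it was 5.50, 6.64 and 8.12 in MYC, against 7.17, 6.13 and 5.58 in N2. The MYC minus N2 median was 0.46. msp-78 read 6.85, 8.69 and 10.38 in set 1, against 7.95, 7.32 and 6.83 in set 2 (1.27 ± 0.974, adjusted p = 0.986; 0.40 without FLAG 3), and its control means were 8.75 in MYC and 8.31 in N2. These are IP signals from whole worms and do not give the number of cells of a type or the RNA per cell. The cause of the difference was not tested.

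Intestine genes, histones and chaperones had no common direction. Of 19 intestine genes 7 were members (5 lower; median -0.78, but 0.31 without FLAG 1 and 0.05 after loess). The yolk protein gene vit-5 spread from 5.26 on FLAG 1 to 9.67 on FLAG 3 of set 1, with 7.61 on FLAG 2, against 9.30, 8.63 and 7.75 in set 2 (-1.05, or 0.08 without FLAG 1). The 7 histone genes of 26 had a median of -0.13 and the 6 chaperones of 22 had 0.07; the sign of both changed with the scaling (-0.68 and -0.47 with arrays centred on the ribosomal protein genes, 0.24 and 0.28 after quantile normalization). Of 20 neuronal genes only snb-1 (synaptobrevin) was a member (-0.96, or -0.27 without FLAG 1).

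Known targets and ribosomal protein genes were also set against each other within each array. The median of the 11 targets minus the median of the 61 ribosomal protein genes was 1.46, 1.34 and -0.67 on FLAG 1, 2 and 3 of set 1, against 2.33, 2.08 and 2.60 on the set 2 tagged arrays. In the controls it was -3.40, -4.07 and -5.11 for MYC, against -3.75, -3.02 and -3.10 for N2, and in input -3.26, -4.09 and -3.17. Every tagged IP array stood above every control and input array, and the set 1 arrays all stood below the set 2 arrays. The 11 targets are those that passed log2 5 on these same tagged arrays, and mes-3 and cye-1, which did not, are left out. The height of the tagged arrays over the others is thus partly set by that choice and is no test. FLAG 2 and FLAG 3 of set 1 had nearly the same target medians (9.33 and 9.18), while their ribosomal protein medians were 7.99 and 9.85.

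**Figure D5:**
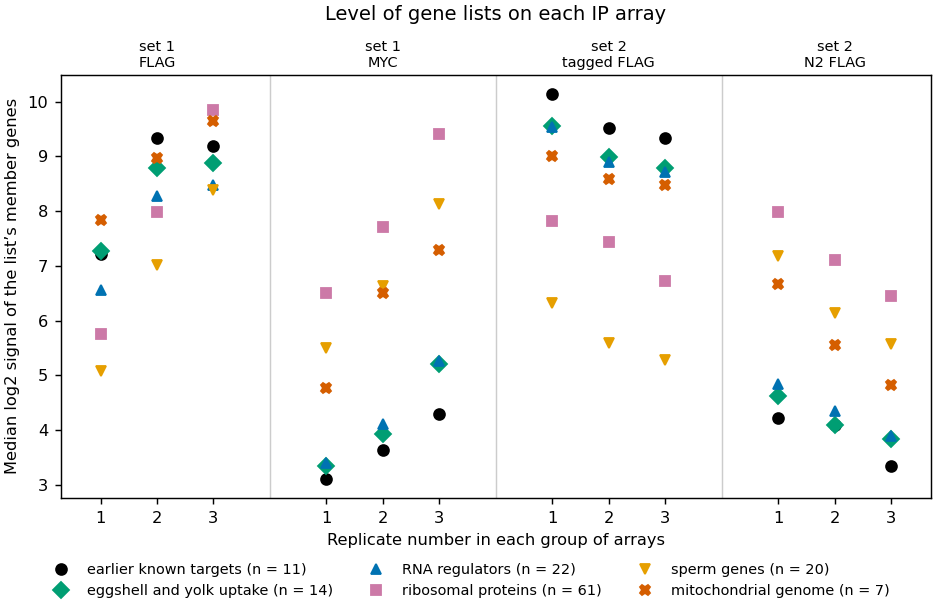
Median log2 signal (y axis) of the members of 6 gene lists on each array of set 1 FLAG, set 1 MYC, set 2 tagged FLAG and set 2 N2 FLAG (x axis, by replicate number). Targets, eggshell genes and RNA regulators are high on the tagged FLAG arrays and low on both controls, while ribosomal protein medians span 5.75 to 9.85 in set 1 FLAG and 6.51 to 9.40 in MYC, against 6.73 to 7.81 in set 2 tagged FLAG and 6.45 to 7.98 in N2.

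Signal in the tagged IPs of set 1 also followed input more closely. Across the 1553 members the Pearson r with the input mean was 0.514 for set 1 and 0.22 for set 2 (rho 0.513 and 0.207). Without FLAG 3 the set 1 value was 0.377 (rho 0.374). With each set's own control it was 0.527 for set 1 and MYC and 0.259 for set 2 and N2 (rho 0.487 and 0.208). These are correlations over the same probe sets and input arrays, and their difference was not tested. Which set the input RNA belongs to is not stated in the labels.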

How the data were processed

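Levels were taken from the deposited log2 values, 1 per probe set and array, which the authors made with GCRMA per the submitters' processing notes (version not given in the sources used here). No further normalization was applied for the main results. The table has 22625 probe sets, 77 of them array controls, which were not used; the platform annotation gave 20766 of the other 22548 1 gene symbol, 887 several and 895 none, and Entrez IDs matched 20701 to the RefSeq table of WBcel235, used for chromosomes only. Groups and replicate numbers came from the sample titles.

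A linear model of group means was fitted to the 12 IP arrays with limma (version 3.58.1, R 4.3.3; eBayes, two-sided tests), after a test on simulated data. Its residual degrees of freedom were 8 and the prior ones 0.849. The spread of a probe set was pooled over the tagged and control IPs. Where the control arrays lie near the floor and vary little, standard errors and p-values can understate the spread of the tagged arrays. Benjamini-Hochberg adjustment ran over the 22548 probe sets, with calls under 0.05. A gene was represented by its brightest probe set of its own on the 6 tagged arrays. Errors of differences are standard errors. Members and the 18 gene lists, written from general knowledge, were chosen with earlier results of these data known.

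Named were gld-1, the 20 genes with the best worst rank, the 10 highest and lowest differences and the 5 largest gains and losses of rank without overlap, the known targets, the 2 highest levels and largest differences of each other list, called probe sets and those at the threshold. Genes in 1 set's highest 100 alone, and those of the closing observations, were picked after their values were seen. A listed gene that shares its only probe set, or has none, was not used. Same-numbered tagged arrays of the 2 sets did not deviate together (r of -0.374, -0.365 and -0.383), so replicate numbers do not pair them between sets. Within set 1, same-numbered FLAG and MYC arrays had r of 0.513, 0.023 and 0.693. Within set 2, same-numbered tagged and N2 arrays had r of 0.067, -0.001 and 0.246. The main fit had no replicate block. Alternatives were a replicate block, other arrays or filters in the fit, other scalings, trend and robust eBayes, array weights, 1 probe set per gene and each array left out in turn.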

Additional observations from a re-analysis of the deposited data

How the results depend on the processing

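Calls depended on scaling and array weights, while the agreement of order did not depend on 1 array. For the tagged IPs as deposited, 0 probe sets were called higher and 6 lower in set 1. The counts were 7 and 15 after quantile normalization, 30 and 43 after cyclic loess, and 1576 and 1476 with array weights. They were 0 and 1 with the replicate block, 0 and 2 with trend and robust eBayes, and 0 and 1 at adjusted p under 0.01. No probe set was called lower with the 6 arrays alone, with a fit on the members, on probe sets at log2 7, or with arrays centred on the member median or on ribosomal protein genes (0 in each). Of the members, 7 and 8 were called after quantile normalization, 21 and 22 after loess and 92 and 138 with array weights. Both normalizations together called 5 members higher (mlc-1, msp-31, msp-65, msp-77 and msp-78) and 3 lower (T04D3.5 by 2 probe sets, both members through set 2 alone, and 1 with several symbols). MYC minus N2 had 1 higher and 2 lower call after loess and 370 and 274 with array weights.

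Leaving out each array in turn gave 0 to 23 probe sets higher and 1 to 20 lower for the tagged IPs, 0 to 1 members each way, and 0 to 1 each way for MYC minus N2. The Spearman rank correlation between the sets ranged from 0.791 to 0.868, Pearson r from 0.848 to 0.917, the shared part of the highest 100 from 61 to 79, and the median difference from -0.941 to 0.091, above 0 only without FLAG 1 of set 1. Members without overlap ranged from 196 to 438 lower and from 1 to 282 higher. Over all probe sets the shares without overlap were 3.79% to 8.16% lower and 3.54% to 9.02% higher.

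The rank correlation was 0.754 over members at log2 5 on all 6 arrays, 0.643 over probe sets at log2 7, 0.631 after loess and 0.954 for differences from the controls; r was 0.787 at log2 7 and 0.755 after loess. Members without overlap under other scalings were chosen after seeing the data. They were 428 lower and 254 higher (quantile, against 5.55% and 5.86% of all probe sets) and 447 and 338 (loess, 5.7% and 11.7%). Centring gave 422 and 287 (on members, 2.01% and 3.61%) and 696 and 42 (on ribosomal protein genes, 3.34% and 0.257%). Centring on the member median turned 3 called non-members: npp-20 (0.25), F36H5.10 (0.03) and nprt-1 (0.06). The cause of these changes was not tested.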

Other observations

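A small group of transcripts ran against the rest, with low control signal and a higher level in set 1. Of the 979 members with a mean control IP signal under 4, 236 were at least 2-fold lower in set 1 and 10 were at least 2-fold higher. The group was picked after its values were seen and has no test. Of the 10, 6 have 1 gene symbol: gipc-1 and gipc-2, which encode PDZ proteins of the GIPC family, sss-1, dlg-1 (the worm homologue of Discs large), R09E10.6 and C33F10.1. gipc-2 read 6.01, 8.04 and 8.48 in set 1, against 6.71, 6.07 and 5.56 in set 2. gipc-1 read 6.67, 8.39 and 8.56 in set 1, against 7.58, 6.64 and 6.14 in set 2. For all 10 probe sets, FLAG 2 and FLAG 3 of set 1 stood above every set 2 array and FLAG 1 lay within the set 2 range. None was called on the values as deposited. After cyclic loess gipc-1 (1.54, adjusted p = 0.0423), gipc-2 (1.77, adjusted p = 0.0111) and R09E10.6 (1.47, adjusted p = 0.0415) were called by limma.

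The highest-ranked probe set that moved by many places toward set 1 carries 2 gene symbols and cannot be given to 1 gene. It ranked 12 in set 1 and 60 in set 2, with 9.54, 11.02 and 11.27 in set 1, against 10.22, 9.65 and 9.01 in set 2, and its control means were 5.05 in MYC and 3.92 in N2.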
